A study of Homo sapiens with 9 samples.

Results

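Of 6367 genes that could be tested with and without the library pair used to select the deposited table, 53 differed in both tests between Caki-1 cells labelled SH1 and control cells, 27 higher and 26 lower in SH1. Caki-1 is an established human line from a clear cell renal carcinoma, and TAF1D, the gene knocked down, encodes a subunit of SL1. The genes that rose included CSF3, CXCL1, CSF2 and C3, secreted proteins of the inflammatory response, the growth factor gene EREG and the adhesion gene L1CAM. Among the genes that fell were IGFBP3, which encodes a secreted binder of insulin-like growth factors, ADAMTS1, a secreted protease, the matrix genes TGFBI, VCAN, FBN1 and COL8A1, and the keratin gene KRT19.

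SL1 sits on the promoters of the ribosomal RNA genes and brings RNA polymerase I to them, the first step in making ribosomes. PI3K, AKT and mTOR, named in the title of the series, form a growth pathway that receptors for growth factors and insulin-like growth factors switch on. Clear cell carcinoma is the common cancer of the kidney tubule, and many of its lines keep an active hypoxia programme, though not all. Whether the Caki-1 cells used here do was not tested.

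Total RNA was sequenced from 9 libraries, 3 of control cells (genotype WT), 3 labelled SH1 and 3 labelled SH3, the last 2 groups both with the genotype TAF1D knockdown made by short hairpin RNA. From the labels it is not known what the names SH1 and SH3 mean, whether the control cells carry a hairpin of their own, or whether libraries 1 to 3 of a group come from separate cultures, so the p-values measure the spread between these libraries, which may be technical. SH1 was compared with control over 6 libraries, and the 3 SH3 libraries were kept in the fit for their share in the estimate of the spread. In a bulk sample, fewer cells of a type and less RNA per cell cannot be told apart.

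The deposited table is a selection of transcripts. All of its 20909 transcripts, from 6819 genes, differ at least 2-fold in estimated count between control 1 and SH1 1 (100%), while any other 2 libraries differ that much in 51.51% to 64.85% of them. Estimated counts were therefore added up per gene and tested with edgeR in 2 fits, with all 9 libraries and with 7, without control 1 and SH1 1. Both fits share 7 libraries, so the second is a check on that pair and not an independent test. A sum covers only the listed transcripts of a gene and need not follow the whole gene. The listed counts add up to 1358215 to 1596467 per library, which is 4.202% to 5.176% of all TPM and not the depth of a library. TAF1D was not analysed here, and no check of the knockdown on its own target was made. Of 18 markers of clear cell carcinoma 8 were in the table, against 1 of 21 for renal tubule, 2 of 11 each for fibroblasts and endothelium and 1 of 15 for blood cells. Genes are listed by the difference of control 1 and SH1 1, so these counts do not show which markers the cells express. The hypoxia-linked carcinoma markers CA9 and NDUFA4L2 were not analysed here.

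With 9 libraries 151 of 6398 genes passed an adjusted p of 0.05 (2.36%), 73 higher (1.14%) and 78 lower (1.22%) in SH1. With 7 libraries it was 57 of 6367 (0.895%), 29 higher (0.455%) and 28 lower (0.44%). The 53 genes that passed both ways with the same sign are 0.832% of the genes tested, 0.424% higher and 0.408% lower. The median size of their log2 change was 1.82 with 9 libraries and 1.90 with 7, and 25 of the 53 had the smaller value with 7. The 53 had to pass in both fits, so similar sizes are built into the choice. Control and SH1 libraries did not overlap in any of the 53, whereas 19.9% of all genes tested showed no overlap. The 53 were chosen by a test on these same libraries, which favours such separation, so this is no added evidence. Changes ran from 0.89 to 5.43 among the higher and from -1.11 to -9.16 among the lower genes on the log2 scale, with 51 of 53 at least 1 in size.

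The count of 53 rests on the small number of libraries. Leaving out control 1 or SH1 1 alone left 54 and 50 genes past the threshold both ways. Without control 2 there were 6, without control 3 there were 7, and without SH1 2 or SH1 3 there were 11 and 9. Without SH3 1, SH3 2 or SH3 3, which bear on the spread, the scaling and the filter on low counts, there were 11, 12 and 15. The 7-library fit never holds control 1 or SH1 1, so leaving out either changed only the 9-library fit, to 108 and 79 genes. Leaving out any other library took from both fits, and the 9-library fit then called 67 to 94 genes. The counts both ways are therefore not comparable between that pair and the other libraries. A fit of the control and SH1 libraries alone called 50 genes with all 6 of them (778 at an unadjusted p under 0.05). Of the 53 genes 15 then missed the threshold: ASNS, BDKRB2, CD70, CSF2, FGF5, FMNL1, GJA1, KITLG, MAST2, RAP1GAP2, RPS24, SEL1L3, STMN3, TAGLN and TNIP1. With 4 of them edgeR called 0 (693 at an unadjusted p under 0.05). DESeq2, run with the SH3 libraries in the fits, called 272 genes both ways, among them all 53.

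**Figure D1:**
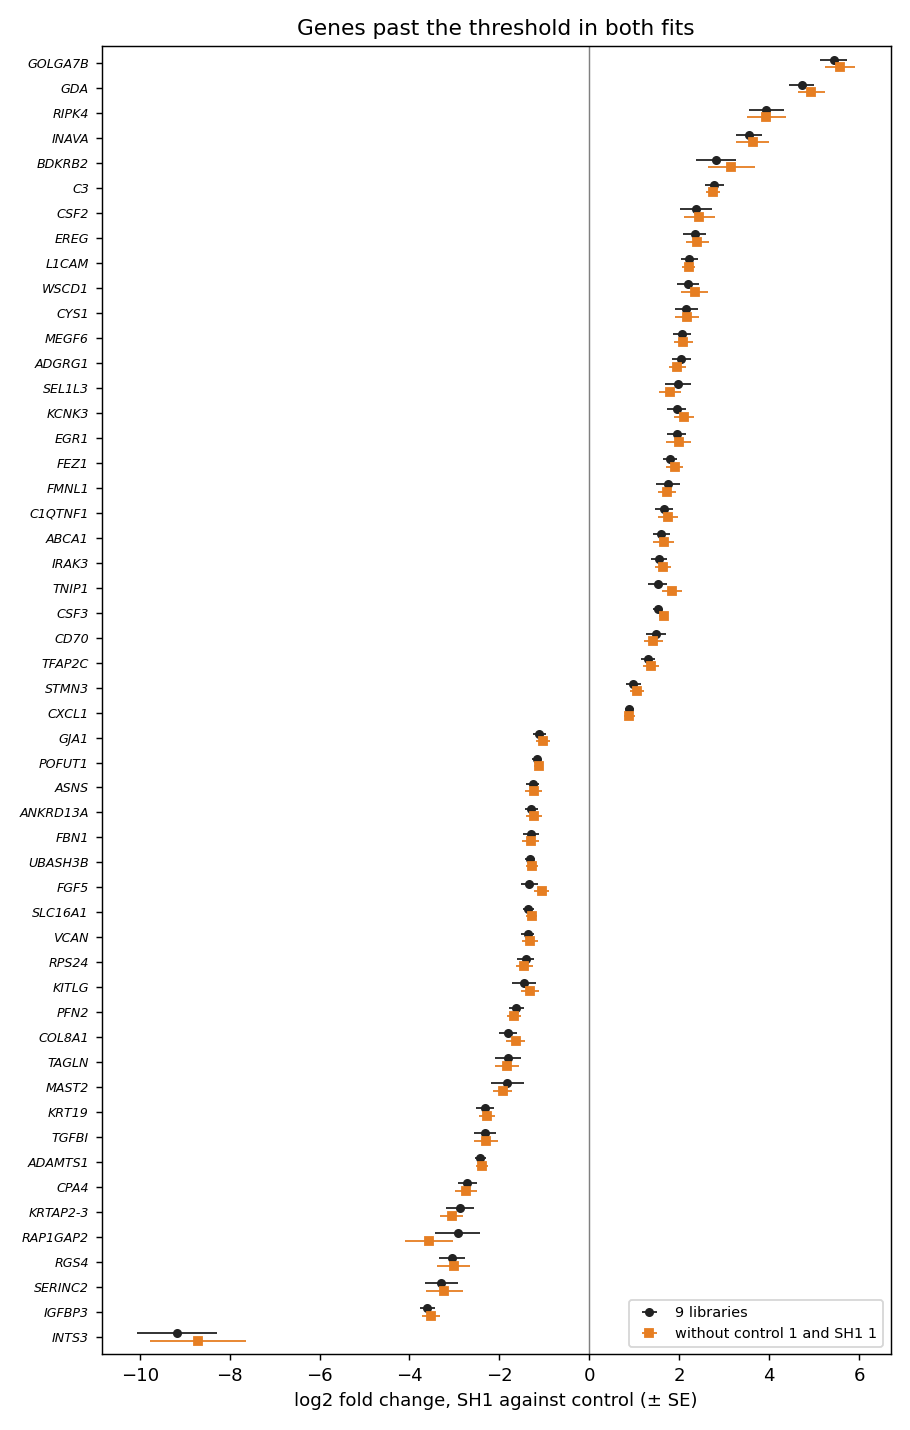
Log2 fold change of SH1 against control with its standard error for 52 of the 53 genes past the threshold in both fits, with 9 libraries (black circles) and without control 1 and SH1 1 (orange squares). All 52 lie on the same side of 0 in both fits, as their choice required, 27 to the right and 25 to the left.

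Another 98 genes passed with 9 libraries alone, 46 higher and 52 lower. All 98 had the same sign with 7 libraries and an unadjusted p under 0.05 there. The 4 that passed only with 7 libraries were STAT3 and ITPRID2, higher, and ARHGAP45 and ATR, lower. In the 7-library fit GJA1 (adjusted p = 0.0493, edgeR), FBN1 and FGF5 (both 0.0475) lay just inside the threshold. CXCL5, CXCL6 and FST (0.0502 each) lay just outside it, so that membership at this edge depends on small differences.

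Upstream sequences of CXCL1, EGR1 and CPA4 are shown because these genes changed in both groups with the knockdown and their promoters hold matches to motifs of inflammatory, growth and stress signalling. They are 150 bases that end just before the start of the gene, plus strand, from RefSeq (GRCh38.p14), at chr4:73869243-73869392 (CXCL1), chr5:138465329-138465478 (EGR1) and chr7:130293011-130293160 (CPA4). Capitals mark a match to the NF-kB motif in CXCL1, to the CArG motif of serum response factor and to the CRE motif TGACGT, read here from the other strand, in EGR1, and to the AP-1 motif TGANTCA in CPA4, the second of which overlaps a match to the antioxidant response motif TGACNNNGC.
CXCL1: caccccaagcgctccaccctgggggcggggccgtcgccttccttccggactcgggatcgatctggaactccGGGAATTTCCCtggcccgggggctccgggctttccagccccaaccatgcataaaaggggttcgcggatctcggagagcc
EGR1: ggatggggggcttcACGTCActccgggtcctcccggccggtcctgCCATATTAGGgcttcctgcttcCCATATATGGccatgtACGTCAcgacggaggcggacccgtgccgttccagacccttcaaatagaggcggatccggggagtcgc
CPA4: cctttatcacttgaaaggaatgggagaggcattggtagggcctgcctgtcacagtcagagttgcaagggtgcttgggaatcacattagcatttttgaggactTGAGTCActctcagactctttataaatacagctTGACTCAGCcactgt

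The NF-kB match of CXCL1 begins 79 bases before the start of the gene, those of the CArG motif in EGR1 at 105 and 83 bases, and those of AP-1 in CPA4 at 48 and 15 bases. RefSeq promoter windows of 300 bases were matched for 38 of the 53 genes and searched on both strands. NF-kB matches stood in 4 of the 38, CXCL1, FMNL1 and INAVA, higher, and UBASH3B, lower. Of all 27305 windows 10.8% held this motif, and of the 5345 windows of tested genes 13.3%. Both shares follow for the other motifs in that order. CArG matches stood in 2, EGR1 and KCNK3 (1.29% and 0.954%), and AP-1 matches in 2, CPA4 and GJA1 (7.76% and 4.45%). CRE matches stood in 2, EGR1 and FEZ1 (8.32% and 11.6%), and antioxidant matches in 3, CPA4, MAST2 and RPS24 (13.6% and 14.5%). A match describes the letters of a window and not the binding of a factor.

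Levels below are FPKM, which scales a count by transcript length and library size, added up over a gene's listed transcripts and given for libraries 1, 2 and 3 in that order. Fold changes after them are log2 ± SE from edgeR with 9 libraries, followed by the Benjamini-Hochberg adjusted p with 9 and with 7 libraries, and n is 3 libraries per group (2 in the 7-library fit). The lists of genes are described by counts, since the 53 genes were chosen by the same comparison.

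Secreted inflammatory genes rose in SH1. CSF3, the granulocyte colony-stimulating factor that drives neutrophil production, stood at 84.8, 74.1 and 74.1 FPKM in control and 237, 243 and 268 in SH1. The lowest SH1 library lay far above the highest control, and the change was 1.52 ± 0.10 (edgeR adjusted p = 0.000182 and 0.00351). CXCL1, a chemokine that attracts neutrophils, went from 204, 207 and 183 FPKM to 435, 406 and 390. The mean rose 2.07-fold with every SH1 library above every control, a change of 0.89 ± 0.10 (edgeR adjusted p = 0.0022 and 0.0307) and the smallest among the 27 higher genes. CSF2, the granulocyte-macrophage colony-stimulating factor, was at 3.32, 3.59 and 5.2 FPKM in control and 17.2, 24.8 and 27.8 in SH1. Its groups were well apart although the SH1 libraries spread widely (2.37 ± 0.35, edgeR adjusted p = 0.0104 and 0.041), and it did not pass with 9 libraries less SH1 2.

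C3, the central component of complement, had 9.1, 12.8 and 13.3 FPKM in control and 78.1, 85.8 and 107 in SH1. Its mean rose 7.71-fold, and every SH1 library was far above every control (2.78 ± 0.21, edgeR adjusted p = 0.000419 and 0.0018). TNIP1, which encodes an intracellular inhibitor of NF-kB signalling, was at 27.4, 14.2 and 20.9 FPKM in control and 63.6, 62.6 and 69.7 in SH1. The controls varied more than the SH1 libraries but stayed below them, and the sum rose by 1.52 ± 0.21 (edgeR adjusted p = 0.00795 and 0.0253). Only 3 of the 26 curated RefSeq transcripts of TNIP1 were listed, and 3 of its 5 tested transcripts had the sign of the sum. IRAK3, an inhibitory kinase-like protein of Toll-like receptor signalling, rose as well, from 3.69, 2.38 and 2.92 FPKM to 11.1, 9.42 and 8.74 (1.55 ± 0.18, edgeR adjusted p = 0.00271 and 0.0193). C1QTNF1, a secreted protein with a domain related to complement C1q, rose by 1.67 ± 0.20 (edgeR adjusted p = 0.00303 and 0.0286).

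Of 25 tested genes of an NF-kB and inflammatory list, 8 rose with 9 libraries and 0 fell. With DESeq2, which called 459 of all 6398 genes against 151 in edgeR, 11 of the list rose and 0 fell. The 5 that passed both ways were C3, CSF2, CSF3, CXCL1 and TNIP1, and CXCL5, CXCL6 and SOD2 passed with 9 libraries alone. In all 20 of the 25 had a positive log2 change. The median was 0.92 with 9 libraries and 0.89 with 7, beside -0.03 and 0.01 over all genes tested. Of the 8 tested complement genes C3 passed both ways and CD46, a membrane inhibitor of complement, with 9 libraries alone. None of the 22 tested interferon response genes passed both ways, and HLA-B rose with 9 libraries alone. Over all genes tested 0.832% passed both ways and 2.36% with 9 libraries, so these calls among 22 genes are near the general share. CD68, a macrophage marker and the single blood cell marker in the table, had a log2 change of 0.34 ± 0.27 (edgeR adjusted p = 0.619 with 9 libraries), and the part of other cells in these changes was not tested.

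**Figure D2:**
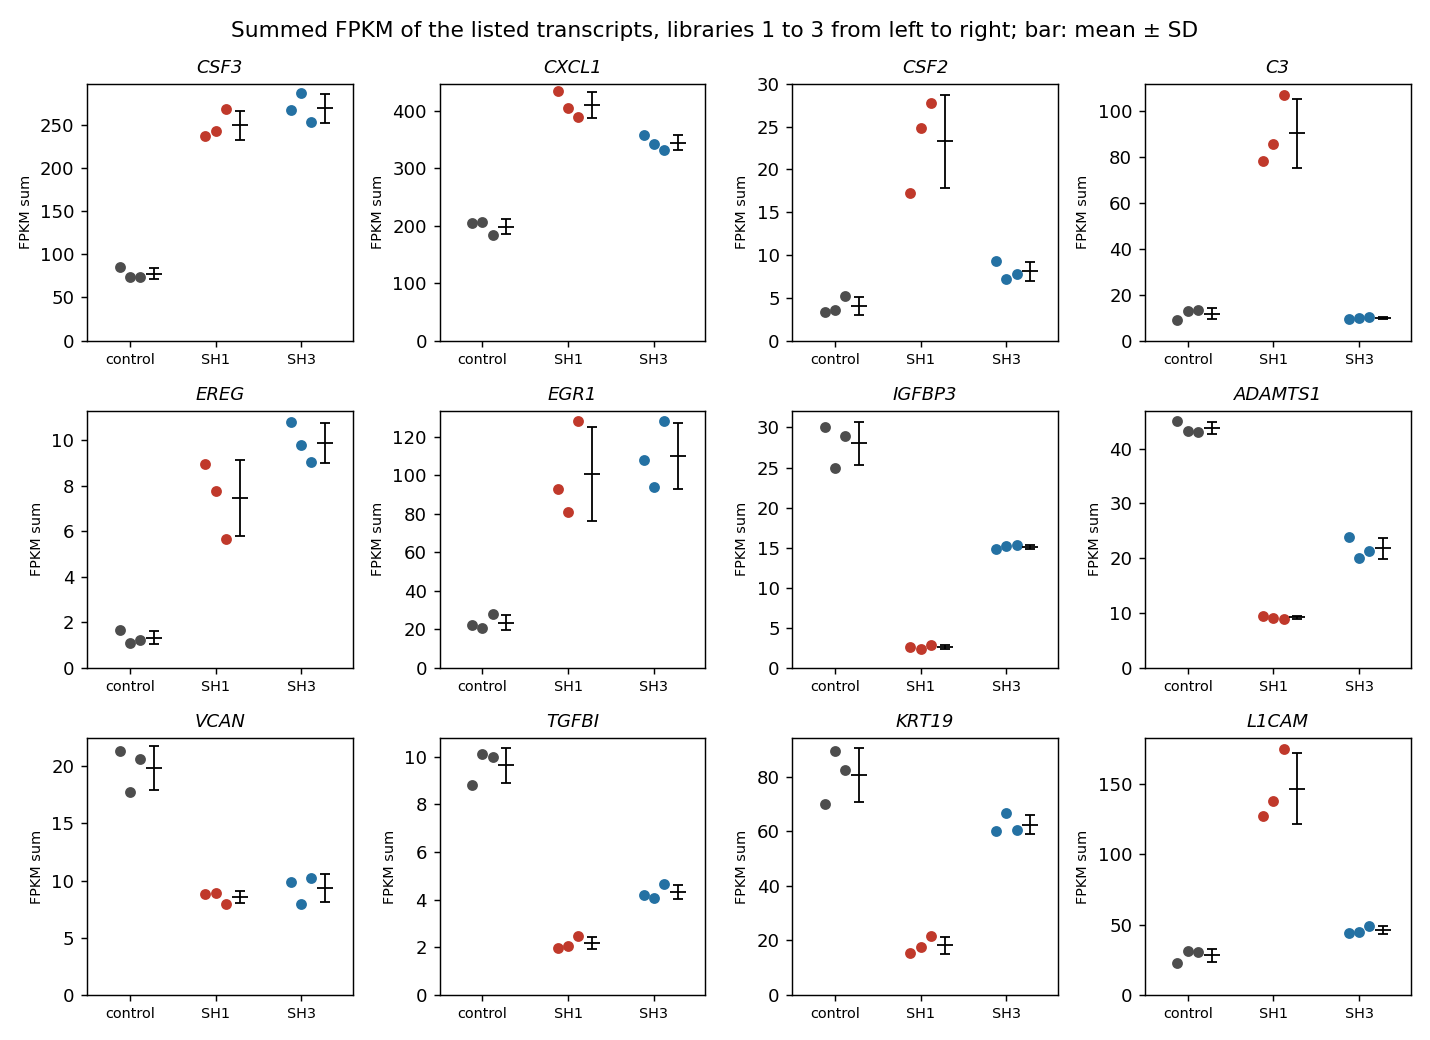
Summed FPKM of the listed transcripts for 12 genes, chosen after their values were seen, in control (grey), SH1 (red) and SH3 (blue), libraries 1 to 3 from left to right, with mean and SD beside them on linear axes from 0. SH1 and control libraries do not overlap in any panel, and SH3 lies near control for C3 but near SH1 for CSF3, EGR1 and VCAN.

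Growth factor genes moved both ways. EREG, epiregulin, a ligand of the EGF receptor, was at 1.65, 1.08 and 1.23 FPKM in control and 8.95, 7.76 and 5.64 in SH1. All SH1 libraries were several times above the controls (2.34 ± 0.25, edgeR adjusted p = 0.00201 and 0.0196). EGR1, an immediate early transcription factor that growth signals switch on, stood at 22.1, 20.4 and 27.8 FPKM in control and 92.8, 81.1 and 128 in SH1. SH1 3 was the highest library of the 6, and the groups were clearly apart (1.94 ± 0.21, edgeR adjusted p = 0.0022 and 0.041). EGR1 was the only 1 of 15 tested immediate early genes to pass either fit, beside 2.36% of all genes tested with 9 libraries.

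IGFBP3, which binds insulin-like growth factors outside the cell, was the secreted gene with the largest fall. It went from 30.1, 25 and 28.9 FPKM in control to 2.55, 2.33 and 2.81 in SH1. The mean fell 10.9-fold with little spread in either group (-3.60 ± 0.17, edgeR adjusted p = 2.62e-05 and 0.0018). FGF5, a fibroblast growth factor, fell from 19.3, 10.9 and 12.9 FPKM to 6.38, 6.74 and 5.77. Control 1 was its highest library and the change was smaller without the pair (-1.34 ± 0.19 with 9 libraries, -1.06 ± 0.16 with 7, edgeR adjusted p = 0.00807 and 0.0475). FGF5 did not pass with 9 libraries less SH1 1 or SH1 3. KITLG, the ligand of the receptor KIT, showed the same excess in control 1, with 25.7, 13.1 and 15.7 FPKM in control and 9.49, 6.92 and 5.74 in SH1 (-1.45 ± 0.26, edgeR adjusted p = 0.0253 and 0.0449). It lost its call in the 9-library fit without control 3, SH1 2, SH1 3, SH3 1 or SH3 3.

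Of 23 tested growth factors and receptors, 2 rose and 4 fell with 9 libraries, with a median of -0.18. Both ways EREG rose and FGF5 and KITLG fell, while IGF2 (higher), FGF1 and FST (lower) passed with 9 libraries alone. Of 9 tested genes of the insulin-like growth factor axis IGFBP3 passed both ways, and IGF2 and GRB10, higher, with 9 libraries alone. IGF2 was near 0 throughout, at 0.01, 0.01 and 0.01 FPKM in control and 0.41, 0.22 and 0.43 in SH1. With limma-trend IGF2 did not pass. The core genes of the PI3K, AKT and mTOR pathway gave 0 calls among 30 tested in either direction, 4 of them at an unadjusted p under 0.05 in edgeR. Over all genes tested 2.36% passed with 9 libraries and 0.832% both ways, so 0 calls among 30 genes is near the general share. DESeq2, which called 459 of all 6398 genes, called FOXO4 higher and EIF4E lower here, and limma-trend called 0. The median log2 change of the 30 core genes was 0.39 with 9 libraries and 0.45 with 7, with 20 of 30 positive. AKT1 had 1.01 ± 1.27 and MTOR -0.14 ± 0.47 (edgeR adjusted p = 0.789 and 0.935 with 9 libraries), each from a part of its transcripts and with standard errors that leave the direction unresolved. In the wider PI3K-Akt pathway as annotated in the deposited table, 10 of 137 tested genes passed with 9 libraries (151 of all 6398). Of these 10, 6 were higher and 4 lower. Both ways CSF3 and EREG rose and FGF5 and KITLG fell, all 4 of them extracellular ligands.

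The matrix genes that passed both ways all fell. ADAMTS1, a secreted metalloprotease that cleaves matrix proteoglycans, was at 45.1, 43.3 and 43 FPKM in control and 9.43, 9.13 and 8.94 in SH1. Both groups were tight and the mean fell 4.78-fold (-2.42 ± 0.12, edgeR adjusted p = 2.62e-05 and 0.0018). TGFBI, an adhesion protein of the matrix induced by TGF-beta, went from 8.8, 10.1 and 10 FPKM to 1.97, 2.07 and 2.47, far below every control (-2.32 ± 0.25, edgeR adjusted p = 0.00202 and 0.0253). VCAN, the large proteoglycan versican, went from 21.3, 17.7 and 20.6 FPKM to 8.86, 8.89 and 7.94. Here 1 of its 4 curated transcripts was listed, and its level in SH1 was below every control by a wide margin (-1.37 ± 0.14, edgeR adjusted p = 0.00139 and 0.0305).

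FBN1, fibrillin of the microfibrils, was at 11.2, 12.7 and 12.5 FPKM in control and 5.26, 5.44 and 5.83 in SH1, and its groups were likewise apart (-1.30 ± 0.17, edgeR adjusted p = 0.0047 and 0.0475). COL8A1, a short-chain collagen, had 19.9, 11.4 and 15.5 FPKM in control and 5.35, 4.38 and 5.06 in SH1. The controls varied more than SH1, with control 1 the highest (-1.81 ± 0.20, edgeR adjusted p = 0.00202 and 0.0286). TAGLN, the actin-binding protein transgelin, fell from 3.19, 4.59 and 4.52 FPKM to 1.11, 1.37 and 1.44 (-1.81 ± 0.29, edgeR adjusted p = 0.016 and 0.0465). TAGLN did not pass with 9 libraries less control 2, control 3 or any 1 SH1 library.

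Of 41 tested matrix and protease genes 3 rose and 7 fell with 9 libraries, and both ways 0 rose and 5 fell: ADAMTS1, COL8A1, FBN1, TGFBI and VCAN. Those that passed with 9 libraries alone were ADAM8, COL6A2 and TNC, higher, and COL13A1 and LOX, lower. The median over the list was -0.11, close to the -0.03 of all genes tested. Of 15 tested mesenchymal and invasion genes 0 rose and 5 fell, 4 of them both ways (FBN1, TAGLN, TGFBI and VCAN). With DESeq2, which called 459 of all 6398 genes, 0 of the list rose and 7 fell. In all 1 of the 15 had a positive change. The median was -1.30 with 9 libraries and -0.96 with 7. The 2 fibroblast markers in the table did not pass, with a median change of -1.22, and their part in these changes was not tested.

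**Figure D3:**
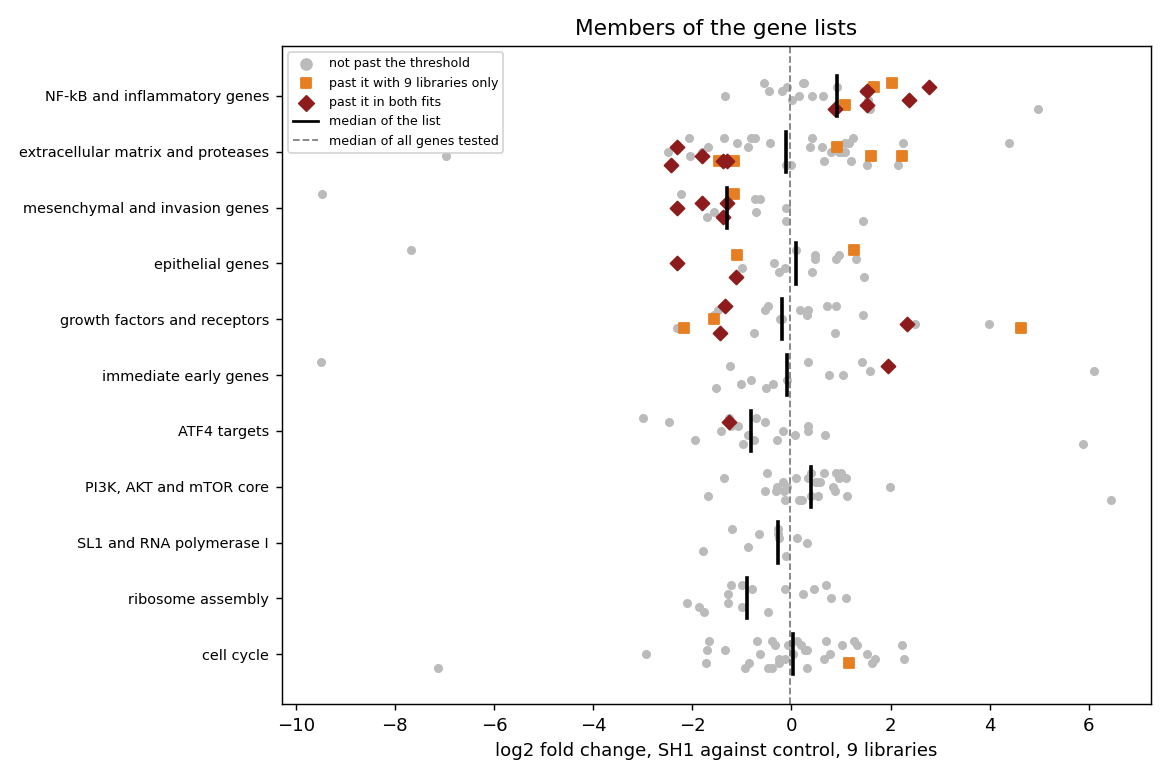
Log2 fold change of SH1 against control with 9 libraries for each tested member of 11 gene lists, with genes past the threshold in both fits (dark red diamonds), with 9 libraries alone (orange squares) or in neither (grey), the median of each list (black bar) and that of all genes tested (dashed line). Genes past the threshold lie to the right in the NF-kB list and to the left in the mesenchymal list. The PI3K, AKT and mTOR core has 0 of 30 past it, beside 2.36% of all genes tested.

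Epithelial and adhesion genes changed in either direction. KRT19, a keratin of simple epithelia, was at 70.1, 89.5 and 82.5 FPKM in control and 15.4, 17.5 and 21.6 in SH1. No SH1 library came near the controls (-2.32 ± 0.20, edgeR adjusted p = 0.000693 and 0.00647). GJA1, the gap junction protein connexin 43, fell from 22.9, 18.8 and 19 FPKM to 11, 10.2 and 10.2 (-1.11 ± 0.14, edgeR adjusted p = 0.00448 and 0.0493). L1CAM, an adhesion molecule of neurons that is also found on carcinoma cells, rose from 22.7, 31.2 and 30.4 FPKM to 127, 138 and 175. SH1 was above every control by a wide margin (2.22 ± 0.19, edgeR adjusted p = 0.000693 and 0.00385), and both of its listed transcripts rose in sign with the sum. Of 17 tested epithelial genes 1 rose and 3 fell with 9 libraries, and KRT19 and GJA1 passed both ways. SPINT2 (higher) and TJP1 (lower), a protease inhibitor and a tight junction protein, passed with 9 libraries alone, and the median of the list was 0.10.

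ADGRG1, an adhesion G protein-coupled receptor, rose from 6.46, 9.3 and 9.17 FPKM to 36.7, 35.2 and 44.8 (2.04 ± 0.21, edgeR adjusted p = 0.00189 and 0.0113). It had the most listed transcripts of the 53 genes, 27, and 26 of 26 tested ones had the sign of the sum. With curated transcripts alone ADGRG1 did not pass. MEGF6, a protein with many EGF-like domains, rose by 2.05 ± 0.20 (edgeR adjusted p = 0.00139 and 0.0126), all of it measured on predicted transcripts. TFAP2C, a transcription factor of epithelial cells, went from 11.3, 8.44 and 9.91 FPKM to 28.9, 25.7 and 26.5 (1.30 ± 0.15, edgeR adjusted p = 0.00301 and 0.0294). RIPK4, a kinase of epithelial differentiation, was among the genes with the largest rises, from 0.12, 0.17 and 0.14 FPKM to 2.2, 2.33 and 2.94. Its level in control was close to 0, and in SH1 it was low but even (3.94 ± 0.38, edgeR adjusted p = 6.05e-05 and 0.00351).

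KRTAP2-3, a keratin-associated protein, was at 21, 36.4 and 33.1 FPKM in control and 4.82, 4.64 and 4.5 in SH1 (-2.87 ± 0.31, edgeR adjusted p = 0.00202 and 0.00782). Control 1 was the lowest control, and the change was larger without the pair (-3.06 ± 0.25). These levels add its listed transcript and a copy with equal values, and it belongs to a family of near-identical genes, so which member gave the reads is uncertain. CD70, a ligand of the tumour necrosis factor family and a marker of clear cell carcinoma, rose from 10.3, 15.3 and 14.2 FPKM to 42.8, 42.4 and 55.4 (1.49 ± 0.22, edgeR adjusted p = 0.00998 and 0.0449). It was the only one of 7 tested carcinoma markers to pass both ways, and LOX, a collagen cross-linking enzyme, fell with 9 libraries alone.

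Cytoskeletal genes that passed went in either direction. PFN2, the actin monomer binder profilin 2, was at 86.8, 116 and 100 FPKM in control and 37.1, 35.2 and 39 in SH1, well below every control (-1.62 ± 0.16, edgeR adjusted p = 0.00141 and 0.0106). STMN3, a stathmin that binds tubulin, rose from 108, 133 and 117 FPKM to 220, 256 and 319 (0.98 ± 0.17, edgeR adjusted p = 0.0219 and 0.0421). Its call was lost with 9 libraries less control 1, control 3, SH1 2, SH1 3, SH3 1 or SH3 2. FMNL1, a formin that builds actin filaments, rose by 1.75 ± 0.26 (edgeR adjusted p = 0.00962 and 0.0205), though not without SH1 2. FEZ1, an adaptor of kinesin transport, rose by 1.80 ± 0.16 (edgeR adjusted p = 0.00079 and 0.0123), though not with curated transcripts alone. MAST2, a microtubule-associated kinase, was the gene nearest to the threshold with 9 libraries. It stood at 4.68, 10.5 and 11.4 FPKM in control and 2.17, 3.13 and 3.18 in SH1, on a single predicted transcript (-1.82 ± 0.37, edgeR adjusted p = 0.0426 and 0.0205). MAST2 failed without any 1 library other than control 1. Of 33 tested actin and tubulin genes 1 rose and 2 fell both ways, STMN3, PFN2 and TAGLN, beside 53 of all 6367 genes (0.832%).

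The largest rises were in genes below 1 FPKM in control: GOLGA7B, GDA, RIPK4 and INAVA. GOLGA7B, which encodes a partner of protein palmitoylation, went from 0.17, 0.15 and 0.21 FPKM to 6.99, 8.18 and 10.7. Each SH1 library exceeded each control by more than an order of magnitude (5.43 ± 0.30, edgeR adjusted p = 2.62e-05 and 0.0018). GDA, guanine deaminase of purine breakdown, went from 0.55, 0.34 and 0.26 FPKM to 14, 11.7 and 10.8 (4.72 ± 0.27, edgeR adjusted p = 5.69e-05 and 0.0018), and 7 of its 9 tested transcripts had the sign of the sum. INAVA, an adaptor of innate immune and epithelial junction signalling, rose from 0.69, 0.62 and 0.56 FPKM to 8.32, 7.31 and 8.77 (3.55 ± 0.29, edgeR adjusted p = 0.000514 and 0.0123). WSCD1, a sulfotransferase of the Golgi, rose by 2.19 ± 0.25 and CYS1, a protein of the primary cilium, by 2.16 ± 0.26 (edgeR adjusted p = 0.00268 and 0.00303 with 9 libraries). SEL1L3, whose function is little known, rose by 1.97 ± 0.29 (edgeR adjusted p = 0.00979 and 0.0408).

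INTS3, a subunit of the Integrator complex that processes small nuclear RNAs, had the largest fall. Its listed transcript stood at 1.89, 2.9 and 1.53 FPKM in control, with estimated counts of 179, 281 and 143, against counts of 0, 1.01 and 0 in SH1. That is a ratio of 672 of control to SH1, with an exact counting interval of 120 to 26577. The fitted change of the sum, -9.16 ± 0.89 (edgeR adjusted p = 0.00301 and 0.0374), adds a copy of this transcript with equal values and depends on how near-zero counts are treated. In a fit of curated transcripts alone, without the copy, it was -8.96 with 9 libraries and -8.59 with 7 (edgeR adjusted p = 0.00959 and 0.0572), so INTS3 missed the threshold with 7. Only 1 of 2 curated transcripts was listed, so the values describe this transcript and not the gene. CPA4, a secreted carboxypeptidase, fell from 15.8, 17.1 and 16.6 FPKM to 3, 2.93 and 2.64, tight in both groups (-2.71 ± 0.21, edgeR adjusted p = 0.000432 and 0.0105). Of its 2 transcripts 1 had the sign of the sum, and that one carried 94.3% of it. SERINC2, a membrane protein named for serine incorporation into lipids, fell from 5.65, 7.09 and 6.9 FPKM to 0.64, 0.74 and 0.93 (-3.29 ± 0.37, edgeR adjusted p = 0.00202 and 0.0286).

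Genes of receptor signalling moved both ways. RGS4, which switches off G proteins, fell from 8.38, 6.26 and 8.25 FPKM to 1.13, 1.24 and 0.73, several times below every control (-3.05 ± 0.29, edgeR adjusted p = 0.0013 and 0.0253). BDKRB2, a bradykinin receptor, rose from 0.14, 0.1 and 0.11 FPKM to 0.73, 0.91 and 1.15 (2.82 ± 0.44, edgeR adjusted p = 0.00301 and 0.0253), and it was the single 1 of the 53 with a mean below 1 FPKM in its higher group. KCNK3, a potassium channel that sets the resting potential, rose by 1.94 ± 0.21 (edgeR adjusted p = 0.0022 and 0.0175). RAP1GAP2, an inactivator of the small GTPase RAP1, fell from 0.9, 1.57 and 1.7 FPKM to 0.32, 0.08 and 0.21 (-2.93 ± 0.51, edgeR adjusted p = 0.0203 and 0.041), though not without control 2, control 3, SH1 2 or SH1 3, nor with the replicate block. UBASH3B, a phosphatase of receptor signalling, fell by 1.31 on the log2 scale (SE 0.11, edgeR adjusted p = 0.000693 and 0.0123). ANKRD13A, a binder of ubiquitin on internalised receptors, fell by 1.29 (SE 0.15, edgeR adjusted p = 0.00246 and 0.041), though not with curated transcripts alone.

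Metabolic and translation genes that passed also went in either direction. ASNS, asparagine synthetase, was at 12.7, 11.4 and 10.8 FPKM in control and 5.41, 6.14 and 4.51 in SH1, less than in any control (-1.26 ± 0.15, edgeR adjusted p = 0.00301 and 0.041). SLC16A1, the lactate transporter MCT1, fell from 51.5, 38.3 and 41.4 FPKM to 20.8, 18.8 and 17.2 (-1.36 ± 0.12, edgeR adjusted p = 0.000741 and 0.0105), summed over a transcript and its copy with equal values. ABCA1, the exporter of cholesterol, rose from 1.7, 1.43 and 1.55 FPKM to 5.59, 5.14 and 5.15 (1.60 ± 0.19, edgeR adjusted p = 0.00303 and 0.041). POFUT1, the enzyme that adds O-fucose to Notch receptors, fell from 40, 37.2 and 39.2 FPKM to 19.6, 19 and 19.4, with almost no spread within a group (-1.17 ± 0.10, edgeR adjusted p = 0.000693 and 0.0123). HES1, a target of Notch, rose with 9 libraries alone.

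RPS24, a protein of the small ribosomal subunit, was the most abundant of the 26 lower genes, at 333, 346 and 517 FPKM in control and 157, 185 and 160 in SH1 (-1.41 ± 0.19, edgeR adjusted p = 0.00638 and 0.0373). The sum is a part of the gene: 2 of 6 curated transcripts were listed and 1 carried 99% of it. Ribosomal protein genes also have many near-identical pseudogenes, which makes their share of reads uncertain. The other 7 of 8 tested ribosomal protein genes did not pass, and the median of the 8 was -0.05. Of 16 tested ribosome assembly genes 0 passed (4 at an unadjusted p under 0.05 in edgeR, 1 called by DESeq2, TCOF1, and 0 by limma-trend), with 5 positive and a median of -0.89 with 9 libraries and -0.52 with 7. Of 10 tested genes of SL1 and RNA polymerase I 0 passed as well (2 at an unadjusted p under 0.05 in edgeR, which DESeq2 called lower, POLR1B and TAF1A, and 0 by limma-trend), with 2 positive and a median of -0.27. Over all genes tested 2.36% passed with 9 libraries, so 0 calls among 16 or 10 genes is near the general share. DESeq2 called 459 of all 6398 genes. The SL1 partners TAF1A, TAF1B and TAF1C had -1.78 ± 0.54, -0.11 ± 0.93 and -0.27 ± 0.48 (edgeR adjusted p = 0.162, 0.977 and 0.863 with 9 libraries). ASNS was the only one of 20 tested ATF4 targets to pass, with 5 of 20 positive and a median of -0.81. CDKN1A, an inhibitor of cyclin-dependent kinases, was the only one of 37 cell cycle genes to pass, higher and with 9 libraries alone. That is near the general share of 2.36%, and the list's median was 0.03.

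The 53 genes share features beyond their change. Single listed transcripts stood for 26 of them (49.1%, against 33% of all tested genes). Of the 27 with 2 or more tested transcripts, 19 had the same sign in all. For 22 of the 53 every curated RefSeq transcript was listed. By the cell component terms in the deposited table, 15 of the 53 were annotated to the extracellular space (28.3%, against 5.35% of annotated tested genes), 7 higher and 8 lower in SH1. Collagen-containing matrix was annotated for 7 (13.2%, against 1.56%), of which L1CAM was higher and the other 6 lower. Basement membrane was annotated for 4 (7.55%, against 0.56%), all lower. Of 27 members with a KEGG pathway, 4 were in the cytokine and receptor pathway (14.8%, against 1.93%), CD70, CSF2, CSF3 and CXCL1, all higher. These shares describe genes that had to pass a test, which favours genes with steady counts.

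The SH3 libraries carry the same knockdown label and were set beside SH1. SH3 against control uses the same controls, so its values are given side by side without a test of likeness. On the side of SH1 and without overlap with control, SH3 lay for 17 of the 27 higher and 14 of the 26 lower genes. It overlapped control for 6 and 8, and lay on the other side of control for INAVA, WSCD1, BDKRB2 and ABCA1 among the higher and SLC16A1, PFN2, ASNS and RPS24 among the lower genes. CSF3 stood at 267, 287 and 253 FPKM in SH3, and EREG at 10.8, 9.77 and 9.03, levels like those in SH1 or higher. GOLGA7B, also counted on the side of SH1, stood at 0.29, 0.29 and 0.27, close to its control levels of 0.17, 0.15 and 0.21. C3 stood at 9.55, 9.67 and 10.3 and TFAP2C at 9.3, 10.3 and 9.41, within the range of control. ASNS stood at 116, 124 and 111, far above control, where SH1 was below it.

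The difference of SH3 and SH1 passed for 32 of the 53 genes, 16 of the higher and 16 of the lower, beside 115 of 6398 genes tested (1.8%). The 53 were chosen for a difference of these SH1 libraries from control, so a high share is built into the choice. For 21 of the genes it did not pass, among them CSF3 (0.19 ± 0.10, edgeR adjusted p = 0.469), EGR1 (0.21 ± 0.20, 0.731), CXCL1 (-0.17 ± 0.10, 0.515) and VCAN (0.21 ± 0.13, 0.58). A p above the threshold does not show that these genes are alike in both groups.

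**Figure D4:**
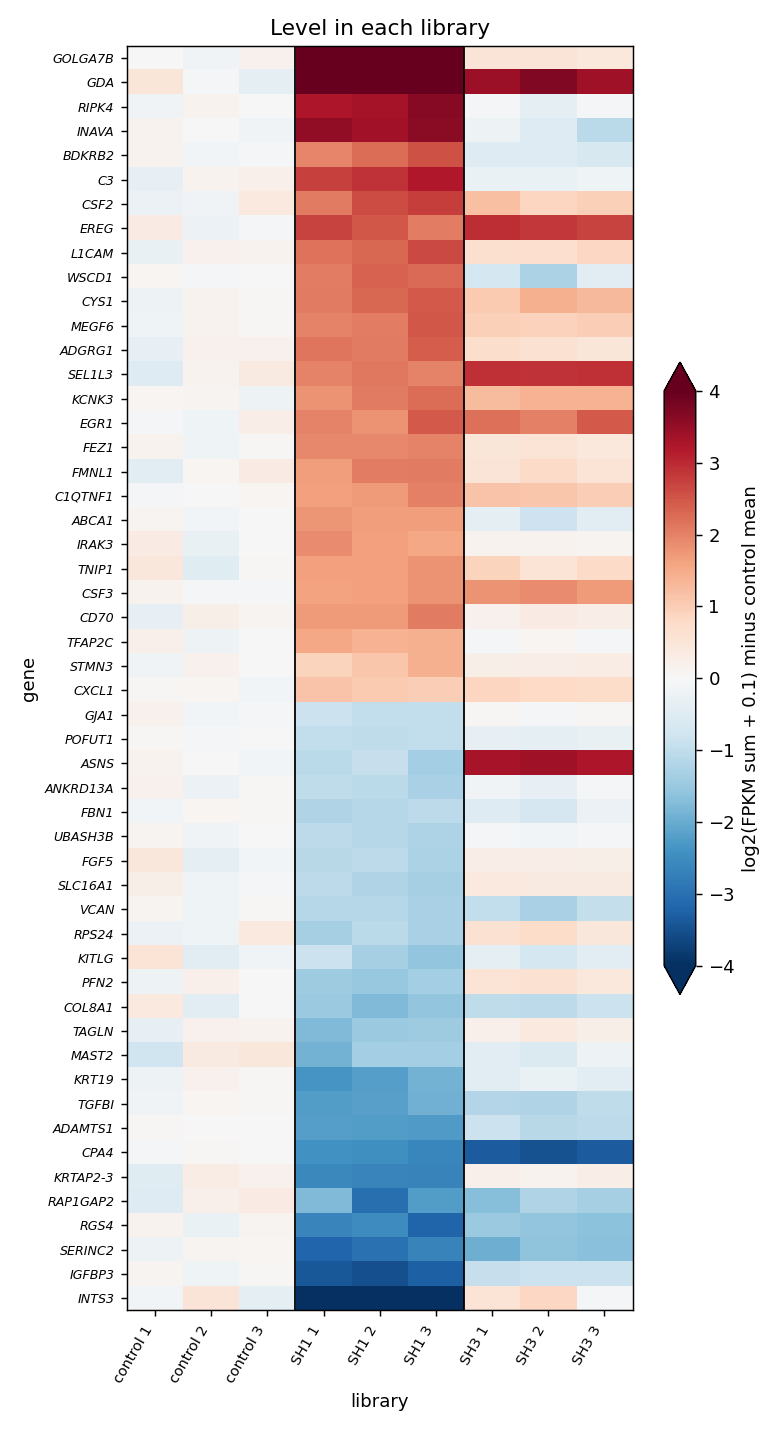
Level of 52 of the 53 genes in each of the 9 libraries, as log2 of the FPKM sum plus 0.1 minus the mean of the 3 control libraries on the same scale, with colours that end at -4 and 4. In each gene the 3 SH1 columns lie on 1 side of 0, and the SH3 columns lie on the same side for genes such as CSF3, EREG and CPA4 and on the other side for C3, slightly, and ASNS.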

How the data were processed

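RNA sequencing of 9 Caki-1 libraries was deposited as 1 table of transcripts, with 4 columns per library per the file headers. The deposited estimated count was summed per gene number, rounded and tested. The authors' FPKM, summed the same way, described levels. The deposited TPM gave the share of a library that is listed, and the deposited normalized read count, a signal scaled per library, was not used in tests. The submitters' processing notes name the mouse build mm10, whereas 6813 of 6819 gene numbers are in the human RefSeq table (GRCh38.p14), so values were read as human. The aligner and counter are not given in the sources used here. Of the columns 0 were left without a library.

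Tests used edgeR 4.0.16 in R 4.3.3 (quasi-likelihood, TMM, filterByExpr with a minimum count of 10, robust dispersions), 1 mean per group, with Benjamini-Hochberg adjustment over all genes tested and a threshold of 0.05. The SE is the log2 change over the square root of F. Scripts were tested on simulated data. An exact interval at 95% covers counting error only, as do all counts here. Alternatives were DESeq2 1.42.0 (its test and its size factors), no scaling, other filters, limma-trend (limma 3.58.1) on log2 of FPKM plus 1, the older edgeR dispersion, fewer groups, a replicate block, single or curated transcripts, a minimum log2 change of 1, and leaving out each library.

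The genes and lists were chosen with earlier results of these data known. The rule for named genes took up to 15 each way by size with a mean of at least 1 FPKM, 19 genes in any case and up to 4 per list. FEZ1, IRAK3, BDKRB2, TFAP2C, C1QTNF1, FMNL1, UBASH3B and ANKRD13A fall outside it, as do the genes of single lists that are named because their number was small, and were added after their values were seen. Promoter windows run from 250 bases before to 50 after a gene's start. Of the 53 genes 1 is counted but not reported here.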

Additional observations from a re-analysis of the deposited data

Results flagged for a closer look

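For 32 of the 53 genes the difference between SH3 and SH1 passed the test of that difference in the 9-library edgeR fit. These genes were chosen on the SH1 libraries that enter this difference, so their number is not independent evidence. The values of 31 of them follow as log2 differences, SH3 minus SH1.

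Among the genes higher in SH1 than in control, SH3 was lower than SH1 for GOLGA7B (-4.84), RIPK4 (-4.28), INAVA (-4.27), BDKRB2 (-4.19), C3 (-3.12), WSCD1 (-3.02) and ABCA1 (-2.26). Smaller differences were found for L1CAM (-1.60), ADGRG1 (-1.56), IRAK3 (-1.51), CD70 (-1.41), TFAP2C (-1.40), FEZ1 (-1.39), FMNL1 (-1.24), GDA (-1.21) and MEGF6 (-1.17). GDA had nonetheless risen in SH3 against control, to 4.94, 5.97 and 4.83 FPKM.

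Among the genes lower in SH1 than in control, SH3 was higher than SH1 for INTS3 (9.50), ASNS (4.42), KRTAP2-3 (2.94), IGFBP3 (2.64), PFN2 (2.03), TAGLN (1.99), RPS24 (1.91) and KRT19 (1.86). Smaller differences were those of SLC16A1 (1.65), FGF5 (1.48), ADAMTS1 (1.33), UBASH3B (1.14), ANKRD13A (1.03), GJA1 (1.03) and POFUT1 (0.76). INTS3 rests on near-zero counts in SH1, which makes the size of its difference uncertain.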

How the results depend on the processing

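The number of genes past the threshold depended on the test and on single libraries, while 0 of the 53 genes changed sign in their sums in the 9-library fit under the 19 or 20 settings run on each. Single transcripts of 8 of them had the opposite sign to the sum. Called with 9 libraries, with 7 and both ways were 151, 57 and 53 genes. DESeq2 called 459, 413 and 272, single transcripts 26, 13 and 11, and a minimum log2 change of 1 27, 11 and 11. With the control and SH1 libraries alone edgeR called 50, 0 and 0 (778 and 693 at an unadjusted p under 0.05 with 9 and 7 libraries). With limma-trend 163, 95 and 85 passed, of which 109, 64 and 56 were higher, a larger share than in edgeR. Leaving out 1 library gave 67 to 108 with 9, 6 to 15 with 7 where it was in that fit, and 6 to 54 both ways. The lowest counts came without SH1 2 with 9 libraries and without control 2 with 7 and both ways.

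Libraries of the same number did not deviate together (correlations of -0.0644, -0.0652 and -0.0161 between control and SH1). The rows were chosen by the difference of control 1 and SH1 1, which bears on these correlations. They therefore cannot decide whether a number marks a shared culture or day. With the number as a replicate block edgeR called 101 genes with 9 libraries, 0 with 7 (604 at an unadjusted p under 0.05) and 0 both ways. Of the 53 genes, 51 passed in the 9-library fit with the block, all but MAST2 and RAP1GAP2. In the 9-library fit all 53 also passed under DESeq2, DESeq2 size factors, no scaling and both other filters, 51 under limma-trend, 51 under the older edgeR dispersion, 38 with 2 groups alone and 25 with a minimum log2 change of 1. Both ways it was 51 without a filter on low counts and 45 each under limma-trend and the older dispersion. The causes were not tested. The sums are part of each gene and each library, so small changes of whole genes were not detectable here.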
